A study of Mus musculus with 5 samples.

Results

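The wide RNA polymerase II (RNAPol2) domains were the 1188 RNAPol2 ChIP-seq peaks of 4000 bp or more on chromosomes 1 to 19 and X, out of 49602 RNAPol2 peaks on these chromosomes. The domains were chosen by the length that the peak caller gave each RNAPol2 peak, so their lengths, their RNAPol2 heights and the place of their RNAPol2 summits describe the selected peaks and are not tested here. They made up 2.40% of the RNAPol2 peaks and 17.0% of the length that these peaks covered (7.76 Mb). They were set against the 11870 RNAPol2 peaks of 1000 to under 4000 bp (20.6 Mb), and Myc, TEAD and YAP were read from their own libraries, which the length rule did not use.

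All 4 libraries came from 3T9MycER murine fibroblasts, an immortalized embryonic line that carries MycER, a Myc protein fused to an oestrogen receptor domain and switched on by 4-hydroxytamoxifen (OHT, 400 nM), and a vector that expresses the activated mutant YAPS127A on addition of doxycycline (2 µg/ml). In every library used here both agents had been added, so no untreated or singly treated cells enter any comparison, and a Myc or YAP peak can come from the ectopic or the endogenous protein. Chromatin was fixed with 1% formaldehyde, preceded by a second crosslinker (DSG) for YAP only, and each antibody (RNAPol2, Myc, TEAD or YAP) had 1 sample. The libraries held between 20441605 (Myc) and 38345189 (RNAPol2) tags, and the headers of all 4 lists give 1 control of 60189064 tags. With 1 sample per antibody there is no replicate check, no test between samples and no p-value. The 95% intervals given below (Wilson for shares, exact Poisson for densities, binomial order statistics for medians) cover counting error only and treat peaks as independent.

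RNA polymerase II transcribes the protein-coding genes. It assembles at a promoter, often pauses shortly downstream of the start site and is then released to travel along the gene body, so that a ChIP signal can be a sharp peak or spread over a long stretch. The antibody used here was raised against the amino-terminal part of the largest subunit and does not separate paused from elongating polymerase. Myc is a transcription factor that binds mainly at active promoters. TEAD proteins bind DNA at promoters and enhancers, and YAP, which has no DNA-binding domain of its own, reaches chromatin largely through them. The peak lists are in the mm9 build, whereas the reference table at hand is in GRCm38, so the domains are named by their mm9 coordinates, with no gene names, strands or sequences. Distances are therefore given to the nearer or the farther end of a domain, which cannot be read as upstream or downstream.

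The domains differed in RNAPol2 height as well as in length from the peaks they were compared with. Their length had a median of 5527 bp, with quartiles of 4616 and 7146 bp and a maximum of 33324 bp, against a median of 1504 bp for the peaks of 1000 to under 4000 bp. Only 9 domains reached 20000 bp. Fold enrichment, the tag pileup at the summit over the local control level, had a median of 16.5 in wide domains, 12.2 in the peaks of 1000 to under 4000 bp and 5.57 in all RNAPol2 peaks. Around the threshold, heights on the 2 sides overlapped. The 3 shortest members lay at chr13:30074863-30078862 (4000 bp, fold 40.8), at chr15:12120893-12124895 (4003 bp, fold 6.54) and at chr3:88125700-88129706 (4007 bp, fold 16.4). The 3 longest peaks left out were all of 3998 bp, at chr11:70793151-70797148 (fold 31.3), at chr11:81848554-81852551 (fold 36.4) and at chr12:17003313-17007310 (fold 11.1).

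Slightly more than 4 in 10 wide domains held a Myc summit, and the largest single class held none of the 3 factors. A Myc summit lay in 489 domains (41.2%, interval 38.4 to 44.0%), against 50.7% of the peaks of 1000 to under 4000 bp and 22.7% of all RNAPol2 peaks. A TEAD summit lay in 605 domains (50.9%, 48.1 to 53.8%), against 48.3% of the peaks of 1000 to under 4000 bp and 25.0% of all RNAPol2 peaks. For YAP the count was 242 domains (20.4%, 18.2 to 22.8%), against 14.3% (13.6 to 14.9%) and 8.35%. Thus the share with Myc was lower in wide domains than in the shorter peaks, the share with YAP was higher, and for TEAD the intervals overlapped. The shares of different factors are not on one scale, because the lists held 48532 TEAD, 14334 Myc and 10281 YAP peaks. With the 10281 strongest peaks of each list the TEAD share was 21.1% and the Myc share 36.1%, and with the stronger 50% of each list the YAP share was 11.6%.

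The factors were combined unevenly. All 3 were found in 202 domains (17.0%), against 11.9% of the peaks of 1000 to under 4000 bp and 4.96% of all RNAPol2 peaks. Myc with TEAD and no YAP, the commonest pair, was found in 248 domains (20.9%, against 29.3% of the shorter peaks and 11.4% of all RNAPol2 peaks). Myc alone was rare, in 39 domains (3.28%, 2.41 to 4.46%, against 9.31% and 6.20%), while TEAD alone was found in 119 domains (10.0%, 8.44 to 11.9%, against 5.04% and 5.69%). TEAD with YAP and no Myc occurred in 36 domains (3.03%, 2.20 to 4.17%), against 2.06% of the shorter peaks and 2.96% of all RNAPol2 peaks. YAP alone occurred in 4 (0.337%, 0.131 to 0.863%), against 0.0927% and 0.317%, so both classes were near their share of all RNAPol2 peaks. No domain held Myc with YAP and no TEAD, where a limit of 3 counts allows a share of up to 0.253%, against 0.202% and 0.119%. The largest class was the 540 domains with none of the 3 summits (45.5%, 42.6 to 48.3%), against 42.1% of the shorter peaks and 68.4% of all RNAPol2 peaks. Nearly all domains with YAP therefore also held TEAD, and most held Myc as well. The same was true of the 1693 shorter peaks with YAP. Of these, 1414 held all 3 factors, 244 TEAD and no Myc, 24 Myc and no TEAD, and 11 YAP alone.

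Wide domains often held several summits of one factor. In total 2560 summits of Myc, TEAD or YAP fell in 648 domains, and 33 domains held 10 or more. Of the domains with Myc, 288 held 1 summit, 135 held 2 and 66 held 3 or more, with at most 8. TEAD was the most repeated, with 1 summit in 259 domains, 2 in 155 and 3 or more in 191, and at most 17. YAP had 1 summit in 158 domains, 2 in 51 and 3 or more in 33, and at most 7. The mean number of summits in an occupied peak was 1.60 in wide domains and 1.12 in the shorter peaks for Myc, 2.30 and 1.28 for TEAD, and 1.60 and 1.14 for YAP. In domains with at least 2 summits of a factor, the median span between the outermost ones was 2413 bp for Myc (201 domains), 2912 bp for TEAD (346 domains) and 2850 bp for YAP (84 domains). Relative to the length of the domain the span was 36.8, 47.8 and 40.0%. The spans in base pairs depend on the length by which the domains were chosen.

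A longer region holds more summits by its length alone, so summits were also counted per kb. By this measure all 3 factors were sparser in wide domains than in the shorter peaks. Myc had 783 summits in wide domains, or 0.101 per kb, against 0.328 per kb in the peaks of 1000 to under 4000 bp, a ratio of 0.307 (0.285 to 0.331). TEAD had 1389 summits, 0.179 per kb against 0.355 per kb, a ratio of 0.504 (0.476 to 0.534). YAP had 388 summits, 0.0500 per kb against 0.0939 per kb, a ratio of 0.532 (0.476 to 0.594). The ratio was thus lowest for Myc, whose interval did not meet those of TEAD or YAP. Against peaks of 2000 to under 4000 bp alone the Myc ratio was 0.497. Relative to flanks of the same length on both sides, wide domains were still denser: 2.77 times for Myc (2.48 to 3.09), 2.57 times for TEAD (2.37 to 2.78) and 2.76 times for YAP (2.36 to 3.23). In the shorter peaks the same ratio to the flanks was 12.0 for Myc, 5.55 for TEAD and 7.05 for YAP. The flanks were not cleared of other RNAPol2 peaks, which lay within 500 bp of 79.5% of wide domains and 52.7% of the shorter peaks. Flank densities of Myc were 0.0364 and 0.0273 per kb, so the flanks of the 2 groups were not alike.

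The 2 measures took different courses with length. The share of peaks with Myc was 53.6% at 1000 to under 2000 bp and 31.2% (27.0 to 35.7%) at 4000 to under 5000 bp, the shortest domains, and then 37.9, 43.3 and 53.7% at 5000 to under 6000, 6000 to under 8000 and 8000 to under 10000 bp, reaching 70.4% (61.2 to 78.2%) in the 108 domains of 10000 bp or more. TEAD went the same way, with its lowest share, 40.0%, at 4000 to under 5000 bp and 79.6% (71.1 to 86.1%) at 10000 bp or more. YAP stayed between 13.5 and 22.8% in every class below 10000 bp and was found in 50.0% (40.7 to 59.3%) of the longest domains. Among wide domains the density of Myc changed little with length, between 0.0953 and 0.108 per kb in the 5 classes. The densities of TEAD and YAP in the longest class, 0.231 per kb (0.208 to 0.256) and 0.0754 per kb (0.0624 to 0.0903), were above those of the 4 other wide classes, which lay at 0.162 to 0.174 and at 0.0398 to 0.0469 per kb. RNAPol2 fold enrichment moved with length too: its median was 13.1 at 4000 to under 5000 bp and 39.6 at 10000 bp or more.

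**Figure D1:**
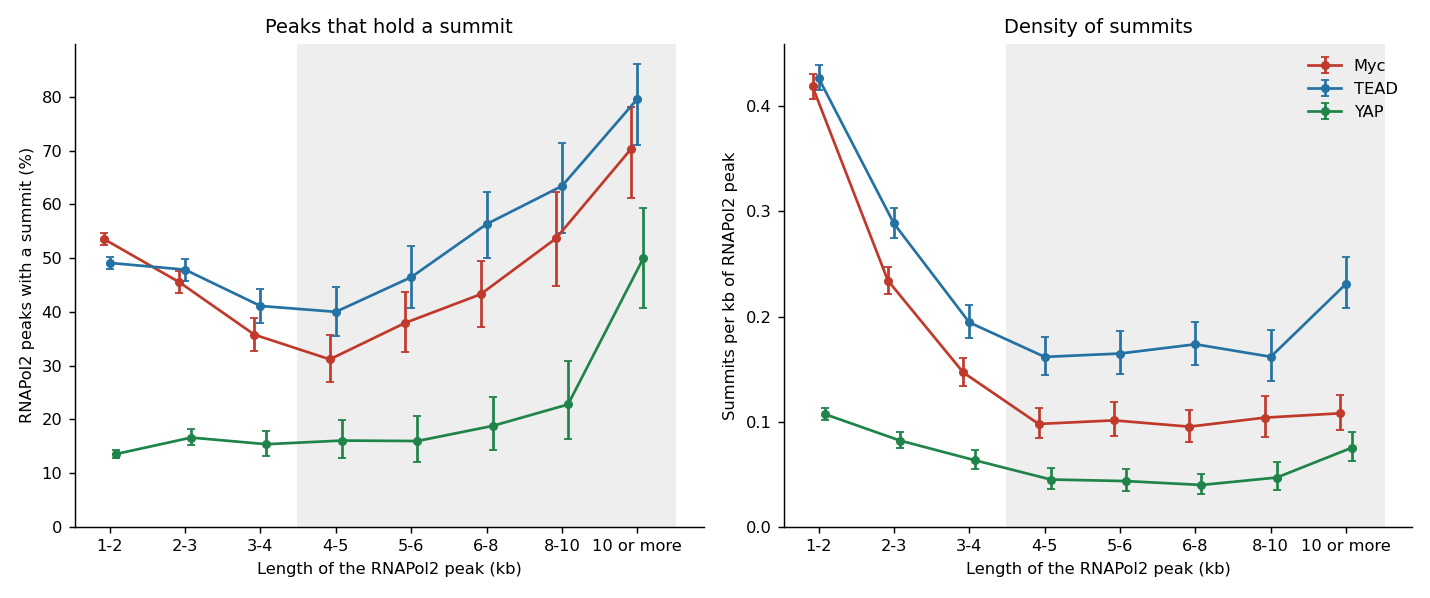
RNAPol2 peaks by length class (kb, x axis), with the share that holds a Myc, TEAD or YAP summit (%, left) and the number of summits per kb (right). Points are 1 sample per antibody, bars are 95% Wilson (left) or exact Poisson (right) intervals, and the grey band marks the wide domains. The Myc share is lowest at 4 to 5 kb (31.2%) and highest at 10 kb or more (70.4%), while its density lies between 0.0953 and 0.108 per kb throughout the grey band.

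Occupancy by Myc followed RNAPol2 height, and at intermediate heights it differed strongly between wide domains and shorter peaks. Both groups were divided at the quartiles of RNAPol2 fold enrichment of the wide domains (297 domains each). In the lowest quartile, which ran from a fold of 3.84 to 10.6 in wide domains and from 2.32 to 10.65 in the peaks of 1000 to under 4000 bp, Myc was found in 4.04% of wide domains (2.33 to 6.93%) and 10.0% of the shorter peaks (9.23 to 10.8%). In the second (10.7 to 16.5) it was found in 10.4% (7.45 to 14.4%) and 57.1% (54.7 to 59.4%), and in the third (16.5 to 35.1) in 55.2% (49.5 to 60.8%) and 93.3% (92.5 to 94.1%). In the highest quartile (35.2 to 83.3) the shares were 94.9% (91.8 to 96.9%) and 96.8% (95.5 to 97.7%), with overlapping intervals. In the lower 3 quartiles a wide domain was thus less often occupied by Myc than a shorter peak.

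TEAD showed the same order only in the middle quartiles. It was found in 29.6% of wide domains and 54.9% of the shorter peaks in the second quartile, and in 60.6 and 78.2% in the third, but in the highest quartile wide domains held it slightly more often (94.6%, 91.4 to 96.7%, against 89.0%, 87.0 to 90.8%). YAP was found in 8.42% of wide domains against 21.4% of the shorter peaks in the second quartile and in 41.1% (35.6 to 46.8%) against 22.4% (19.9 to 25.0%) in the highest, so its order turned round with height. The domains with none of the 3 summits were concentrated at low RNAPol2 height: they made up 79.8% of the lowest quartile, 67.7% of the second, 33.0% of the third and 1.35% of the highest, against 80.5, 31.5, 3.59 and 0.196% of the shorter peaks. Over the 1188 domains, which share 1 RNAPol2 library and its control, the Spearman coefficient of the number of summits was 0.72 with RNAPol2 fold and 0.23 with length for Myc, 0.62 and 0.28 for TEAD, and 0.34 and 0.18 for YAP.

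**Figure D2:**
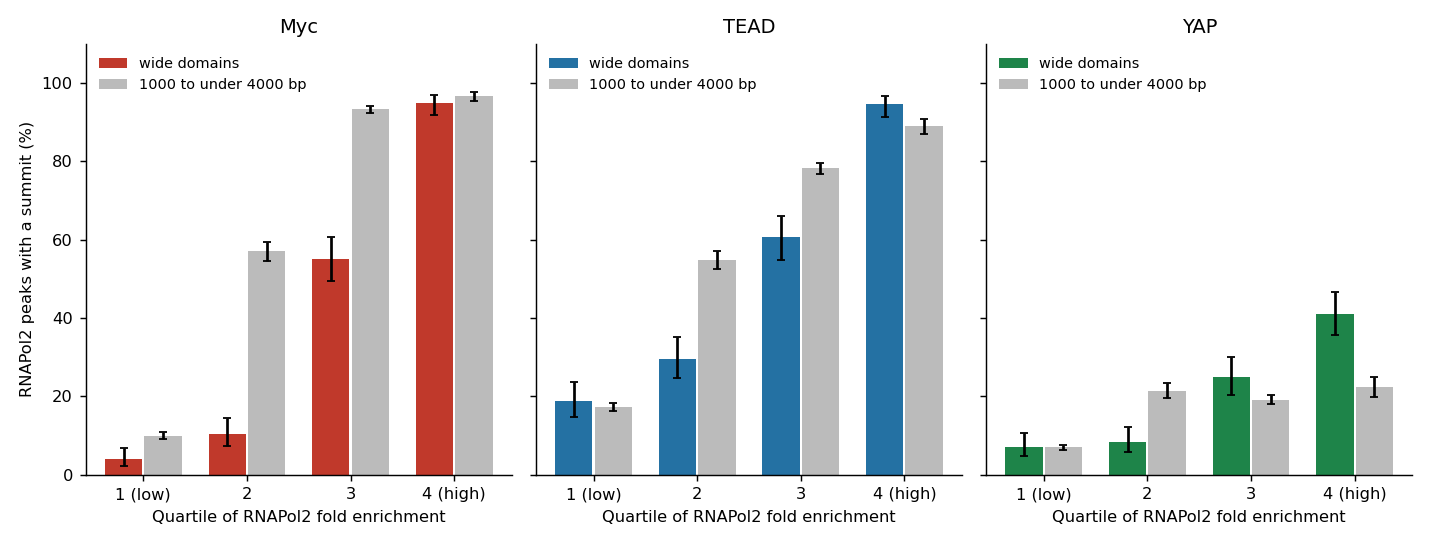
Share of RNAPol2 peaks with a Myc, TEAD or YAP summit (%, y axis) in the 4 quartiles of RNAPol2 fold enrichment of the wide domains (x axis), for wide domains (coloured) and peaks of 1000 to under 4000 bp (grey), with 95% Wilson intervals and 1 sample per antibody. In the second quartile 10.4% of wide domains and 57.1% of shorter peaks hold Myc, and in the highest 41.1% of wide domains and 22.4% of shorter peaks hold YAP.

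The RNAPol2 summit, the position of highest pileup, lay closer to an end in wide domains than in the shorter peaks, relative to length. The distance from the summit to the nearer end had a median of 28.4% of the length (27.3 to 29.6%) in wide domains, against 34.5% (34.2 to 34.8%) in the peaks of 1000 to under 4000 bp. A summit placed evenly along a peak would give 25%. In base pairs the median distance was 1576 bp against 508 bp. The summit lay within the outer 10% at either end in 145 wide domains (12.2%, 10.5 to 14.2%), against 1.71% of the shorter peaks. No summit of a wide domain was closer than 157 bp to an end, while over all RNAPol2 peaks the smallest distance was 0 bp. A distance of 157 bp is more than 10% of the median length of the shorter peaks (1504 bp). The outer 10% thus spans fewer base pairs in the shorter peaks, and the 2 shares are not on an equal footing. Neither end was favoured: the summit lay nearer to the end with the lower coordinate in 51.6% of domains.

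Eccentric summits were commoner in the domains that held Myc, TEAD or YAP than in those without the factor. For YAP this was not seen in the 40 domains without Myc. In the 489 wide domains with a Myc summit the median place was 18.8% of the length (17.2 to 20.8%), against 33.6% (32.4 to 35.0%) in the 699 without. The summit lay in the outer 25% at either end in 63.0% of domains with Myc and 28.0% of those without, where even placement gives 50%, and in the outer 10% in 22.9% (19.4 to 26.8%) and 4.72% (3.38 to 6.56%), where it gives 20%. In the shorter peaks the order was the opposite, 36.7% of the length with Myc and 31.6% without. Eccentric summits also went with TEAD, which shared most of its domains with Myc: the median place was 22.0% (19.9 to 23.8%) with TEAD and 33.4% (32.0 to 35.0%) without, and 23.8% (20.6 to 27.8%) with YAP and 29.4% (28.0 to 30.8%) without. In the shorter peaks the order was the opposite for these factors too, at 36.5 and 32.2% for TEAD and 36.5 and 34.2% for YAP. In the 155 wide domains with TEAD and no Myc the median was 31.3% (28.0 to 34.6%), against 34.2% (32.7 to 35.5%) in the domains with none of the 3 summits. Their summits lay in the outer 25% in 37.4% (30.2 to 45.3%) against 25.6% (22.1 to 29.4%) of the domains with none, and in the outer 10% in 9.03% (5.46 to 14.6%) against 3.52% (2.26 to 5.43%). In the 40 wide domains with YAP and no Myc the median was 35.6% (28.3 to 39.4%). Their summits lay in the outer 25% in 27.5% (16.1 to 42.8%), near the share of the domains with none.

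The domains with Myc were also higher (median fold 38.5 against 11.5 without) and longer (6028 against 5249 bp). Within classes of similar length the gap remained: at 4000 to under 6000 bp the summit lay at 24.0% of the length with Myc (241 domains) and 34.4% without (471), at 6000 to under 10000 bp at 16.4% (172) and 32.6% (196), and at 10000 bp or more at 11.2% (76) and 30.8% (32). Just below the threshold, at 3000 to under 4000 bp, the medians were 29.9 and 34.0%, and at 2000 to under 3000 bp they were 35.3 and 32.5%, so the order changed between these 2 classes. The third quartile of RNAPol2 fold was the only one with over 100 domains on each side. Its medians were 21.1% with Myc (164 domains, 17.0 to 25.6%) and 33.8% without (133 domains, 31.9 to 37.5%). There too, domains with Myc were higher (median fold 26.4 against 19.5). In the others the order was the same but intervals overlapped. The medians were 26.5% (12 domains, 12.7 to 41.8%) and 34.6% in the lowest. They were 28.5% (31 domains, 18.6 to 33.8%) and 32.8% in the next. In the highest they were 17.3% and 27.3% (15 domains, 12.0 to 44.1%). Place and fold had a Spearman coefficient of -0.32 over the 1188 domains. Whether the gap holds at equal height was not tested. From 2000 bp upwards, the summit of peaks with Myc thus lay at a smaller share of the length in each longer class, while in peaks without Myc the median place stayed between 30.8 and 34.4%. In base pairs the distance to the nearer end was larger in longer classes in both groups: in peaks with Myc its median was 824.5 bp at 2000 to under 3000 bp, 1167 bp at 4000 to under 6000 bp and 1546 bp at 10000 bp or more, and in peaks without Myc it was 766, 1618 and 3793 bp.

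**Figure D3:**
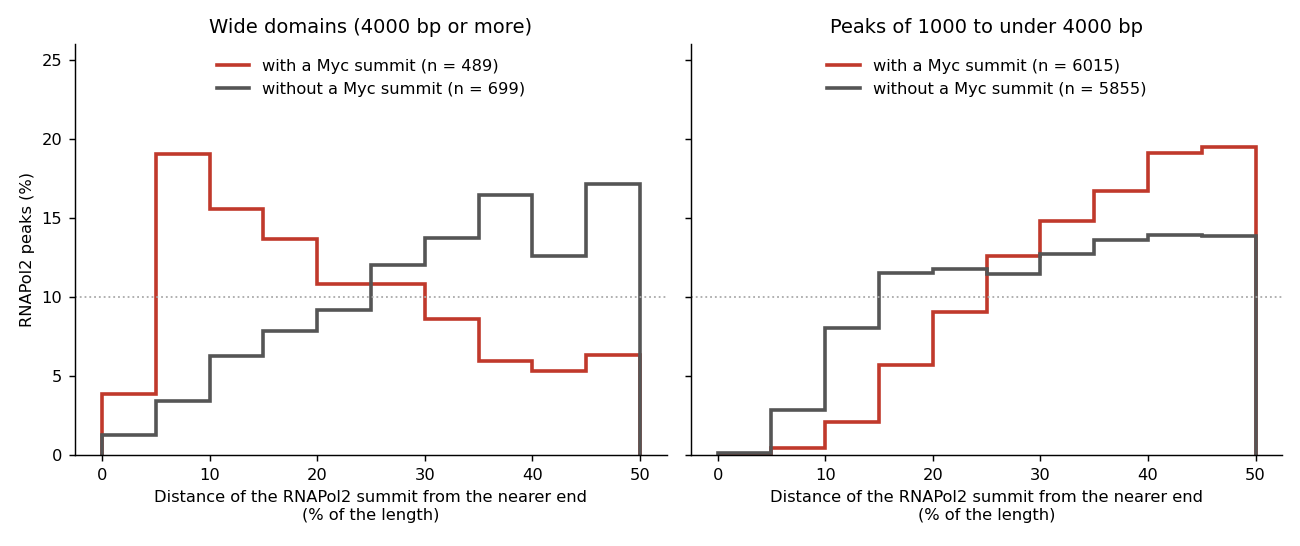
Distribution of the RNAPol2 summit's distance from the nearer end (% of the peak's length, x axis, in steps of 5%) for wide domains (left) and peaks of 1000 to under 4000 bp (right), as a share of the peaks in each group (%, y axis), with a Myc summit (red) and without (grey). The dotted line marks the 10% per step that even placement would give. Wide domains with Myc peak near the end (median 18.8%), while those without lie nearer the middle (33.6%), and in the shorter peaks both groups lie nearer the middle (36.7 and 31.6%).

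Within wide domains, Myc summits were gathered around the RNAPol2 summit, and TEAD and YAP summits were more spread. The distance to the RNAPol2 summit had a median of 598 bp for Myc (460 to 666 bp), 1167 bp for TEAD (1067 to 1321 bp) and 1125 bp for YAP (848 to 1387 bp), against 147, 245 and 252 bp in the shorter peaks. With the stronger 50% of the Myc list the Myc median was 282 bp. Distances in base pairs are bounded by the length of the peak. In the shorter peaks 53.5% of the length lay within 500 bp of the RNAPol2 summit. Within 500 bp of the RNAPol2 summit, which is 15.2% of the domains' length, lay 47.9% of Myc summits (44.4 to 51.4%), 31.5% of TEAD summits (29.1 to 34.0%) and 31.4% of YAP summits (27.0 to 36.2%). In density this was 0.319 Myc summits per kb near the RNAPol2 summit and 0.0619 per kb in the rest of the domains, 0.371 and 0.145 for TEAD, and 0.104 and 0.0404 for YAP. Each factor thus had its highest density near the RNAPol2 summit, with the steepest contrast for Myc. The shorter peaks showed the same order, with 0.509 and 0.121 per kb for Myc, 0.487 and 0.203 for TEAD, and 0.127 and 0.0556 for YAP.

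A part of the summits lay far out in the domain. More than 2000 bp from the RNAPol2 summit were 167 Myc summits (21.3%), 507 TEAD summits (36.5%) and 139 YAP summits (35.8%). Taking only the closest summit in each occupied domain, it lay at a median of 168 bp for Myc, 267 bp for TEAD and 550.5 bp for YAP, and within 500 bp in 75.5, 68.8 and 47.5% of the occupied domains. The far summits were weaker for Myc: the median Myc fold enrichment was 15.5 within 500 bp, 8.88 at over 500 and up to 2000 bp and 8.63 beyond 2000 bp. TEAD (8.62, 7.32 and 7.04) and YAP (7.06, 6.20 and 6.24) followed the same course over a smaller range. In the shorter peaks the median Myc fold was also lower farther out, at 12.6 within 500 bp and 9.21 at over 500 and up to 2000 bp.

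Close to the RNAPol2 summit, TEAD and Myc differed in the side of it on which they lay. In the 1106 domains that extended at least 500 bp on both sides, 251 of 393 TEAD summits within 500 bp lay towards the nearer end (63.9%, 59.0 to 68.5%), against 53.6% (51.9 to 55.4%) in the shorter peaks. Myc summits leaned slightly the other way, with 148 of 321 towards the nearer end (46.1%, 40.7 to 51.6%, an interval that includes equal numbers), against 44.6% (42.9 to 46.4%). YAP lay between them, with 66 of 115 (57.4%, 48.3 to 66.0%), against 51.6% (48.2 to 55.0%). In the 422 of these domains whose RNAPol2 summit lay in the outer 25% at either end, the nearer side held 71.9% of TEAD summits (65.7 to 77.5%), 69.0% of YAP summits (56.2 to 79.4%) and 42.1% of Myc summits (35.5 to 49.0%), against 58.1% (50.4 to 65.5%), 54.8% (39.9 to 68.8%) and 38.2% (30.5 to 46.6%) in shorter peaks with such a summit. In the 684 with a more central summit the shares were 53.5, 45.6 and 52.9%, each with an interval that includes equal numbers. Within 500 bp of an eccentric RNAPol2 summit, TEAD and YAP thus lay more often towards the shorter side of the domain and Myc towards the longer side. For TEAD the nearer side held 66.2% (60.9 to 71.0%) in domains with Myc and 51.6% (39.4 to 63.6%) in those without. Over all distances and all wide domains, the farther side held 66.4% of Myc, 63.3% of TEAD and 61.6% of YAP summits. That side made up 74.0% of the length.

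**Figure D4:**
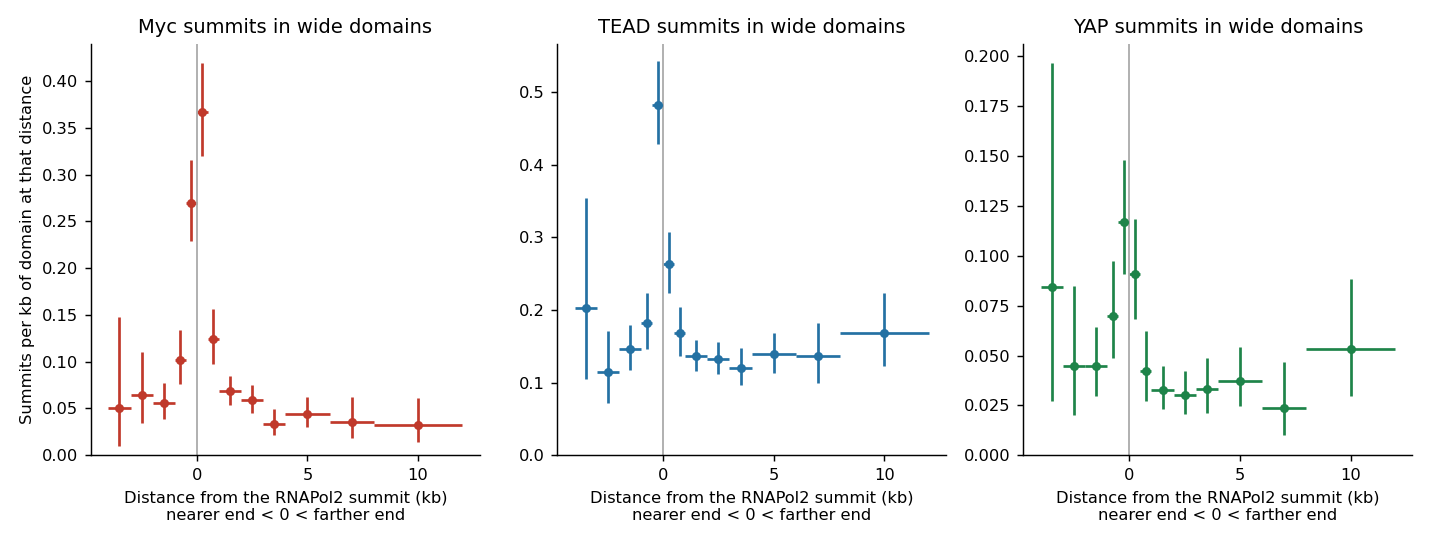
Density of Myc, TEAD and YAP summits (summits per kb of wide domain lying at that distance, y axis) by distance from the RNAPol2 summit (kb, x axis), negative towards the nearer end and positive towards the farther end, for the 1188 wide domains. Horizontal bars are the width of the bin and vertical bars 95% exact Poisson intervals, with 1 sample per antibody. Within 500 bp, TEAD is denser towards the nearer end (0.483 against 0.263 per kb) and Myc towards the farther end (0.367 against 0.270 per kb).

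YAP summits in wide domains mostly coincided with TEAD summits, wherever they lay. A TEAD summit was found within 100 bp of 61.6% of YAP summits (56.7 to 66.3%) in wide domains and 63.6% in the shorter peaks, and within 250 bp of 76.8% (72.4 to 80.7%) and 80.6% (78.8 to 82.3%). The share within 250 bp was 77.0% for YAP summits up to 500 bp from the RNAPol2 summit and 79.1% for those beyond 2000 bp. Myc was nearby less often: a Myc summit lay within 250 bp of 32.7% of YAP summits (28.3 to 37.5%) in wide domains, against 46.1% (43.9 to 48.3%) in the shorter peaks. The share was lower farther out, at 44.3% (35.8 to 53.1%) up to 500 bp from the RNAPol2 summit and 23.7% (17.4 to 31.5%) beyond 2000 bp. Likewise, 42.1% of TEAD summits up to 500 bp from the RNAPol2 summit had Myc within 250 bp, against 19.1% at over 500 and up to 2000 bp and 18.5% beyond, while the share with YAP within 250 bp was even, at 21.7, 21.3 and 21.5%. TEAD with YAP thus occurred all along the domains, and TEAD summits had Myc more often near the RNAPol2 summit than away from it. The shorter peaks showed this too: 51.4% of TEAD summits up to 500 bp away and 22.2% at over 500 and up to 2000 bp had Myc within 250 bp. For YAP summits these shares were 53.3 and 26.9%. Counted from Myc in wide domains, TEAD lay within 250 bp of 48.5% of Myc summits up to 500 bp away. The share was 37.3% at over 500 and up to 2000 bp and 53.9% (46.3 to 61.3%) beyond.

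Relative to their length, the 5 longest domains had the RNAPol2 summit close to one end, at 1.12 to 10.9% of the length. The longest lay at chr9:66864795-66898118 (33324 bp), with a fold of 66.5 and its RNAPol2 summit 1147 bp from the nearer end, and held 4 Myc, 9 TEAD and 5 YAP summits, of which 8 TEAD and 4 YAP but only 1 Myc lay more than 2000 bp from the RNAPol2 summit. The second, at chr3:107536397-107563772 (27376 bp), had its RNAPol2 summit 636 bp from the end, 1 Myc summit 14 bp away from it, 6 TEAD summits and 2 YAP summits, the nearer of these 16986 bp away. The fourth and the fifth, at chr13:49702926-49728015 and at chr2:50980954-51004880, had folds of 47.7 and 46.4, RNAPol2 summits 507 and 267 bp from the end and 2 Myc summits each. In the second, the fourth and the fifth no Myc summit lay more than 2000 bp from the RNAPol2 summit, while in these and in the longest domain TEAD summits ran into the longer side, which was most of the domain. The third, at chr15:11779720-11806314 (26595 bp), was unlike them, with a fold of 12.95. Its RNAPol2 summit lay 2892 bp from the nearer end, against a median of 1576 bp over all wide domains. It held no Myc summit, 2 TEAD summits and 1 YAP summit, none within 2000 bp of the RNAPol2 summit. Its control level was 2.14 times the lowest of the list. Over all wide domains 63.3% of TEAD summits lay on the farther side of the RNAPol2 summit, which made up 74.0% of the length.

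The 5 domains of the highest RNAPol2 fold were shorter than these. In 4 of them there was no YAP summit. Of all 1188 wide domains 242 (20.4%) held one, as did 41.1% of the highest fold quartile. The highest, at chr9:44142273-44146512 (4240 bp, fold 83.3), held 2 Myc and 2 TEAD summits, as did the second, at chr5:116009172-116016247 (7076 bp, fold 80.8). The third, at chr6:51405807-51424604 (18798 bp, fold 80.2), held 1 Myc, 2 TEAD and 1 YAP summit within 2000 bp of the RNAPol2 summit. The domain at chr9:15110251-15115375 (fold 79.3) held 1 Myc and 2 TEAD summits, and that at chr8:87183257-87190403, also of fold 79.3, held 3 Myc and 4 TEAD summits. The last was the only one of the 5 with a central RNAPol2 summit, at 48.4% of the length.

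The domains with most summits were ranked by the sum over the 3 lists, of which that of TEAD is the longest. In these 5 domains TEAD had more summits than Myc or YAP. First was the domain at chr9:102617410-102640334 (22925 bp), with 26 summits, of which 15 were TEAD, 7 YAP and 4 Myc, and with TEAD and YAP peaks of up to 70.6-fold and 33.8-fold enrichment against at most 12.6-fold for Myc. Next came the domain at chr9:41387756-41404886, with 17 TEAD, 4 YAP and 4 Myc summits, and that at chr5:143570462-143586971, with 10 TEAD, 7 YAP and 6 Myc summits. The fourth, at chr6:52107956-52125826, held 11 TEAD, 4 YAP and 5 Myc summits, and the fifth was the longest domain. In each of the 5, at least 7 TEAD summits and at least 3 YAP summits lay more than 2000 bp from the RNAPol2 summit. Of the Myc summits, 3 lay as far away in each of the first 4 domains and 1 in the fifth.

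The longest domains with none of the 3 summits overlapped the domains with most summits in length and were lower in RNAPol2 fold, at 28.9 or less against 39.1 or more. They lay at chr6:67230062-67249435 (19374 bp, fold 19.15), at chr13:63386142-63403707 (17566 bp, fold 7.72), at chr15:59155449-59171666 (16218 bp, fold 17.1), at chr17:23950004-23965976 (15973 bp, fold 20.9) and at chr7:148670428-148686357 (15930 bp, fold 28.9). Their RNAPol2 summits lay between 3241 and 7247 bp from the nearer end, at 20.3 to 44.7% of the length, farther in than in the 5 longest domains.

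**Figure D5:**
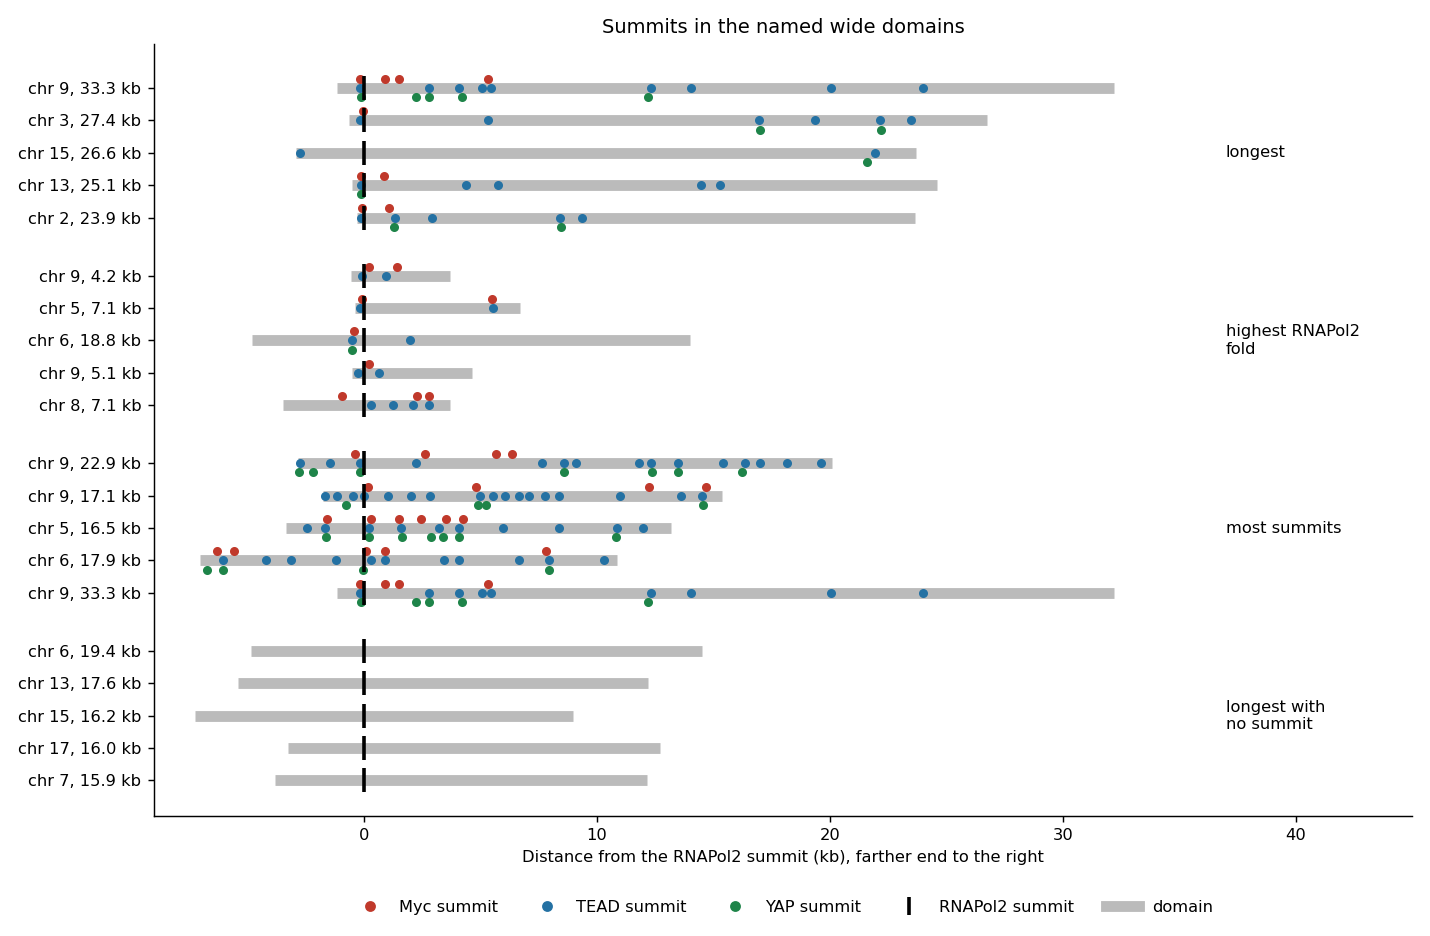
Position of Myc (red), TEAD (blue) and YAP (green) summits relative to the RNAPol2 summit (black bar) in 4 sets of 5 wide domains, with the distance from the RNAPol2 summit in kb on the x axis, the farther end to the right and the domain in grey. In the longest domains the RNAPol2 summit lies 267 to 2892 bp from the nearer end and most TEAD summits lie along the longer side, while in the longest domains without any summit it lies 3241 to 7247 bp from the end.

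Wide domains seldom stood alone. The nearest other RNAPol2 peak lay a median of 192 bp away, against 424 bp for the peaks of 1000 to under 4000 bp, and within 500 bp for 79.5% of domains (77.1 to 81.7%) against 52.7%. When RNAPol2 peaks 1000 bp or less apart were joined before the length rule was applied, 3016 regions reached 4000 bp, so the number of wide domains depends on where the peak caller broke the signal. Domains without Myc were not generally next to a Myc peak: the nearest Myc summit outside lay a median of 10445 bp away, against 12829 bp for the shorter peaks without Myc, and within 5000 bp for 27.6% (24.4 to 31.0%) against 22.6%. For domains without TEAD and without YAP, the nearest summit lay 7954 and 32797 bp away, against 8556 and 46879 bp for the shorter peaks.

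The domains were unevenly spread over the chromosomes, where the control level also differed. They made up between 0.994% of the RNAPol2 peaks of chromosome 12 and 3.43% of those of chromosome 19, with the most, 128, on chromosome 11 and 124 on chromosome 15. The control level at the summits of wide domains, relative to the lowest in the list, had a median of 1.60 on chromosome 15, 1.47 on chromosome 10 and 1.41 on chromosome 19, against 1.18 over all wide domains and 1.07 over the shorter peaks. On these 3 chromosomes 28.9% of wide domains held YAP (23.7 to 34.7%), against 18.0% (15.7 to 20.6%) on the others, while the shares with Myc (37.9 and 42.1%) and TEAD (52.7 and 50.4%) had overlapping intervals. The YAP share was 33.9% (26.1 to 42.6%) on chromosome 15, 23.1% on chromosome 10 and 25.0% on chromosome 19. On the others it ran from 10.0% (chromosome 12, 10 domains) to 29.7% (chromosome 16, 37 domains), both with a control level of 1.00. The part of the control level in the number of domains and in the YAP share was not tested.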

How the data were processed

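ChIP-seq was carried out for RNAPol2, Myc, TEAD and YAP in 1 sample each. Per the labels' processing notes, the submitters used BWA 0.6.2, SAMtools and MACS2 2.0.9 with the mm9 build. Per the file headers, narrow peaks were called in each sample at a p-value cutoff of 1e-05 against the local control level (windows of 1000 and 10000 bp), with at most 2 tags per position and the larger library scaled to the smaller. Because broad calling was off, a wide domain is a narrow-peak call that the peak caller left undivided. The deposited columns were positions, the signal (pileup) at the summit, −log10 p- and q-values and the fold enrichment, a ratio of pileup to local control. Precision is limited by depth, from 20441605 (Myc) to 38345189 (RNAPol2) tags, and by the length of each list: 14334 Myc, 48532 TEAD and 10281 YAP peaks on chromosomes 1 to 19 and X.

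A summit was assigned to an RNAPol2 peak when it lay between its start and end. Shares, densities, medians and their intervals were computed in Python 3.11.15 with numpy 2.4.6, pandas 2.3.3, scipy 1.17.1 and matplotlib 3.10.9, and the code was tested on simulated data. The control level was the pileup divided by the fold enrichment. The domains named are the 5 longest, the 5 of highest fold, the 5 with most summits, the 5 longest with none, and the 3 on each side of the threshold. The domains and measures were chosen with earlier results of these data known. Other thresholds, factor lists and ways of joining peaks were tried. Gene names and sequences are not given, and no list of the input sample was used.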

Additional observations from a re-analysis of the deposited data

How the results depend on the processing

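The ratios of summits per kb, wide over shorter peaks, stayed below 1 in every setting tried. Against peaks of 2000 to under 4000 bp they were 0.497 (Myc), 0.702 (TEAD) and 0.663 (YAP), weighted to the RNAPol2 fold quartiles of wide domains 0.241, 0.395 and 0.443, and after joining RNAPol2 peaks 1000 bp or less apart 0.226, 0.356 and 0.380. With factor lists of equal length the Myc and TEAD ratios were 0.278 and 0.465, with −log10 q of at least 10 the Myc ratio was 0.277, and with the stronger 50% of each factor list the TEAD ratio was 0.469. The number of domains was 2086 at 3000 bp or more, 758 at 5000 bp or more and 3016 after joining, and the median summit place was 30.0, 25.6 and 24.5%. The Myc share was 46.8% at 5000 bp or more, 32.4% with the stronger 50% of the list, 37.3% with the q limit and 36.1% with equal lists. The TEAD share was 46.7% at 3000 bp or more, 57.1% at 5000 bp or more, and 36.0, 43.2 and 21.1% under those 3 list settings. The YAP share was 22.8% at 5000 bp or more, 11.6% with the stronger 50%, 11.4% with the q limit and 18.0% without chromosomes 10, 15 and 19. Lists cut to stronger or fewer peaks give lower shares by construction, so the order of Myc and TEAD shares depends on where each list ends: with equal lists Myc was found in more domains than TEAD. The other causes were not tested. The median distance of Myc summits to the RNAPol2 summit ranged from 282 to 656 bp, of TEAD summits from 826 to 1443 bp and of YAP summits from 848 to 1597 bp. No paired analysis was possible because each antibody has 1 sample, and none could be left out.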
